A study of Mus musculus with 15 samples.

Results

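Heat shock proteins and their J-domain cochaperones were followed in ribosome profiling libraries of mouse embryonic stem cells (mESCs). The set holds every transcript whose GENCODE M21 symbol starts with Dnaj, Hsp90, Hspa, Hspb, Hspd, Hspe or Hsph. It holds 73 of the 21727 transcripts counted, 1 for each gene, of which 44 are J-domain proteins and 29 are not. A filter on low counts left 54 of them among 10085 transcripts tested, 35 with a Dnaj symbol and 19 without.

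Ribosome profiling sequences the stretch of mRNA that a ribosome shields from nuclease, a ribosome-protected fragment (RPF) or footprint. The cells were E14Tg2a.4 mESCs grown with LIF, unedited (WT) or carrying a homozygous 3xFLAG tag before the stop codon of endogenous *Rps27* (Rps27-FLAG) or *Rps27l* (Rps27l-FLAG), the paralogs that encode the small-subunit proteins eS27 and eS27L. Each of the 3 lines was represented by 3 clones, so that the replicate is a clone, and all cells received cycloheximide before lysis. Footprints came from all ribosomes (total RPFs, 9 libraries) and, in the tagged lines, from ribosomes captured with anti-FLAG beads (IP RPFs, 6 libraries), and WT cells had no IP. The comparisons ask whether tagging moved translation of these genes and whether ribosomes with either paralog carried more or less of it. Footprints count ribosomes on a transcript, so that more mRNA and more ribosomes per mRNA cannot be told apart, nor can fewer cells of a kind and less RNA per cell.

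Hsp70 proteins bind and release unfolded segments of client proteins in a cycle of ATP hydrolysis. J-domain proteins deliver clients and trigger hydrolysis through a conserved His-Pro-Asp loop, and Hsp110 proteins, distant Hsp70 relatives, act as nucleotide exchange factors that reset the cycle. Hsp90 takes over later clients such as kinases and receptors, the Hspd1 and Hspe1 chaperonin folds proteins inside mitochondria, and small heat shock proteins hold clients without ATP. Embryonic stem cells are known for a high basal level of several cytosolic chaperones.

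The coding sequences carry these roles in a few codons. In-frame codons for His-Pro-Asp (CAC or CAT, then CCN, then GAC or GAT) occurred once in 43 of the 44 Dnaj coding sequences. They occurred in 0 of the 29 other members and in 1038 of 19170 other coding sequences of the table (5.41%). *Dnajb13* was the Dnaj member without them. The loop codons, in capitals, are shown for the J-domain member that differed most between fractions, *Dnajc13*, and for the most translated member of each J class. The positions are chr9:104186720-104186746 (exon 35, minus strand) for *Dnajc13*, chr4:40723803-40723829 (exon 2, plus strand) for *Dnaja1*, chr5:29750954-29750980 (exon 3, plus strand) for *Dnajb6* and chr4:132544062-132544088 (exon 4, plus strand) for *Dnajc8*, all on GRCm38 and within the CDS of the GENCODE M21 transcript.
Dnajc13: cagaaatacCACCCGGATaagaacccg
Dnaja1: ttgaagtacCACCCTGATaagaatcca
Dnajb6: cttaaatggCACCCGGACaaaaatcct
Dnajc8: atcctggtgCATCCTGACaaaaaccag
The loop lay within the first 150 codons in 36 of the 43, whereas in *Dnajc13*, a 2243-codon endosomal protein, its His was codon 1332.

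The last codons carry a sorting or docking signal in some members. Codons for Glu-Glu-Val-Asp, the tail that docks cochaperones with tetratricopeptide repeats, closed 7 members (*Hspa8*, *Hspa1a*, *Hspa1b*, *Hspa1l*, *Hspa2*, *Hsp90aa1* and *Hsp90ab1*) and 1 of the 19170 other coding sequences. Codons for the Lys-Asp-Glu-Leu signal, which retains proteins in the endoplasmic reticulum (ER), closed *Hspa5*, *Hsp90b1* and *Dnajc10* and 8 of the 19170 others. The ends of the most translated cytosolic and ER members follow, with the last 4 codons before the stop in capitals. They lie at chr9:40805088-40805114 (*Hspa8*, exon 9, plus strand), chr12:110691543-110691569 (*Hsp90aa1*, exon 11, minus strand), chr17:45568018-45568044 (*Hsp90ab1*, exon 11, minus strand) and chr2:34776084-34776110 (*Hspa5*, exon 9, plus strand), and that of *Hsp90b1* runs across an intron on the minus strand of chromosome 10.
Hspa8: tcaggccccaccattGAAGAGGTGGAT
Hsp90aa1: gacacatcacgcatgGAAGAAGTAGAC
Hsp90ab1: gatgcctcgcgcatgGAAGAGGTGGAT
Hspa5: gaggatacatcagaaAAAGATGAGTTG
Hsp90b1: aaggaatctacagagAAGGATGAATTG
*Hspa8* and *Hsp90ab1* end in the same 4 codons, and *Hsp90aa1* in synonymous ones.

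Library totals lay between 3972152 and 8064166 counts, with IP libraries the smaller ones (3972152 to 6673935). Pluripotency markers were abundant in every library (*Pou5f1* between 413 and 506 CPM, footprint counts scaled to library size and by trimmed mean of M-values, TMM), and their summed level over 8 genes was 3586 to 3875 CPM in total RPFs of the 3 lines and 4102 to 4347 in the IP libraries of both lines. Markers of endoderm summed to 2.66 to 6.72 CPM in WT total RPFs, 2.70 to 4.98 and 6.64 to 14.6 in those of Rps27-FLAG and Rps27l-FLAG, and 1.61 to 6.06 and 6.39 to 12.7 in their IP. They were higher in Rps27l-FLAG than in Rps27-FLAG without overlap in both fractions, and their part in the comparisons between these lines was not tested. Markers of fibroblasts summed to 11.3 to 37.3 CPM and those of mesoderm and neural cells to 4.17 to 23.2 CPM over all libraries, with *Afp* at 0 in 11 libraries, *Col3a1* and *Hand1* in 5 each, *T* in 4 and *Foxa2* and *Mixl1* in 1 each. The pluripotency sum was thus higher in every IP library than in every total library, and its part in the differences between IP and total RPFs was not tested. *Rps27* was listed at 0 in all libraries, and none of its 28-nt windows is unique among the transcripts of the table. *Rps27l* had 655 to 1151 counts, and neither count checks the tag.

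The members carried 2.78% ± 0.136 (SD, n = 3) of the footprint counts in WT cells, with mitochondrially encoded transcripts left out. To compare genes, levels were divided by the counted CDS length, giving a footprint density in normalized CPM per kb. The median density of the 54 tested members in WT was 63.8, against 25.5 over all tested transcripts, 36 of the 54 lay above that median and 14 lay among the 10% of highest density. The plot of WT density by role shows the tested members from *Hspa12a* (3.26 ± 0.951) to *Hspa8* (2642.5 ± 244).

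**Figure D1:**
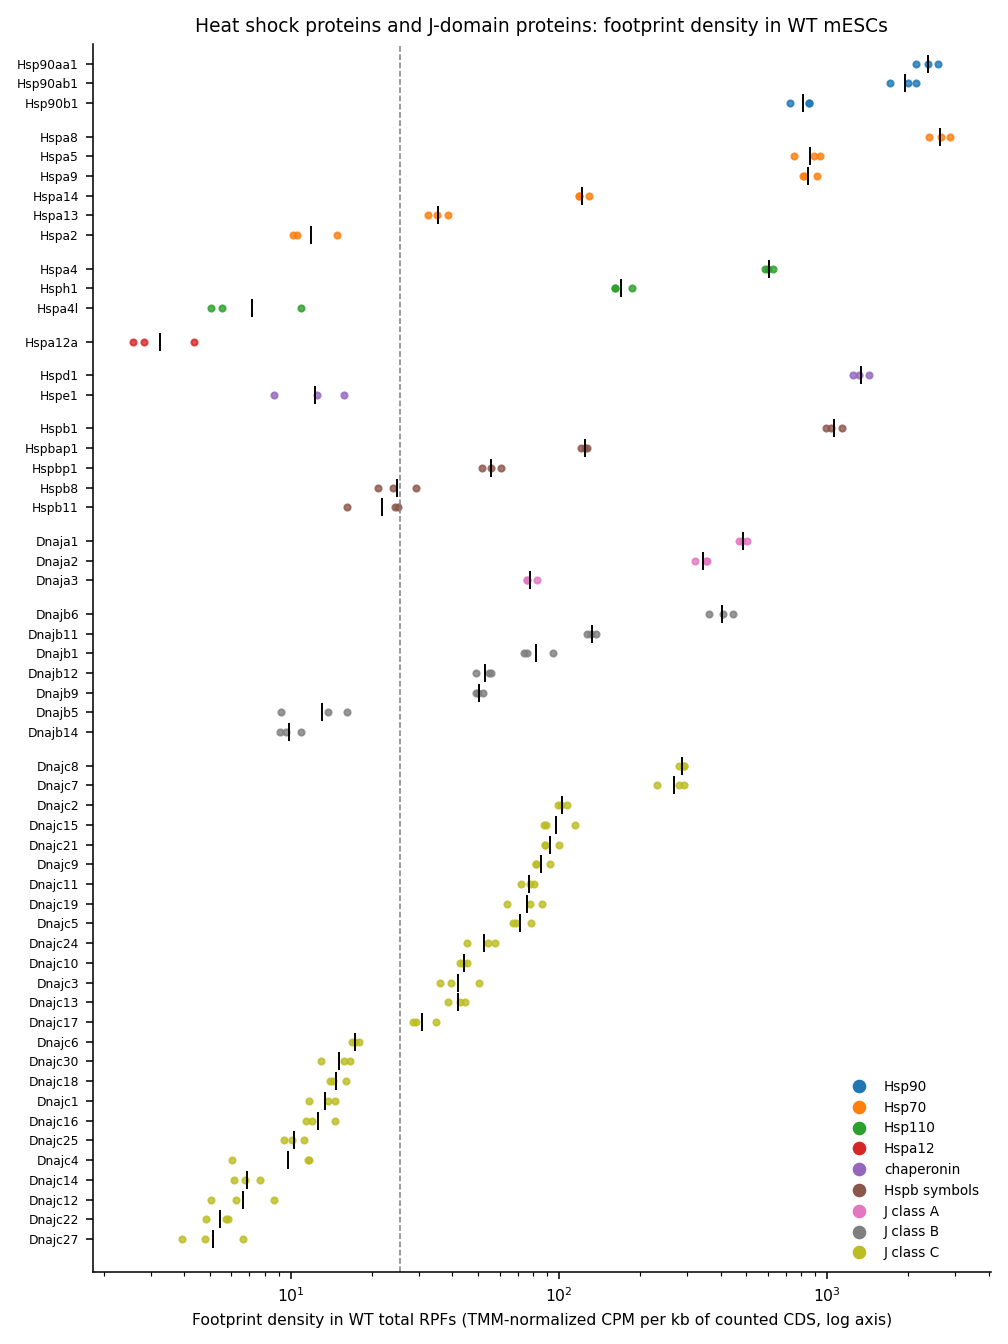
Footprint density in the 3 WT total RPF libraries (points) with their mean (bars) for the 54 tested members and *Hspe1*, grouped by role, in TMM-normalized CPM per kb of counted CDS on a log axis. The dashed line is the median of all tested transcripts (25.5); *Hspa8*, *Hsp90aa1* and *Hsp90ab1* lie farthest right and *Hspe1* lies below its partner *Hspd1* by 90.9 to 145 times.

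The cytosolic machines led. *Hspa8*, the constitutive Hsp70, had densities of 2392, 2656 and 2879 in the 3 WT libraries and ranked 1st among all tested transcripts with a length. *Hsp90aa1*, the alpha isoform of cytosolic Hsp90, had 2138, 2383 and 2590.1 and ranked 4th. *Hsp90ab1*, the beta isoform, had 1714, 2009 and 2137 and ranked 25th. *Hspa8* exceeded *Hsp90aa1* within each library, although their ranges over libraries overlapped. The highest library of *Hsp90ab1* lay just under the lowest of *Hsp90aa1*, and within each library *Hsp90aa1* exceeded *Hsp90ab1*, by 1.22 ± 0.0310 times (SD, n = 3).

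The organelle chaperones followed. *Hspd1*, the mitochondrial chaperonin, had a mean density of 1335 ± 93.5, and *Hspa9*, the mitochondrial Hsp70, had 850.2 ± 58.0. In the ER, *Hspa5* (BiP) had 861 ± 98.5 and *Hsp90b1* (Grp94) had 813 ± 74.7, a ratio of 1.06 ± 0.0341. The 3 libraries of *Hspa5*, *Hspa9* and *Hsp90b1* overlapped. *Hspb1*, a small heat shock protein, reached 1056 ± 75.3 and was the only tested member named Hspb with a density above 125. That prefix also takes in *Hspbap1* (125 ± 3.34) and *Hspbp1* (55.9 ± 4.55), which encode binding partners rather than small heat shock proteins, and *Hspb11* (21.9 ± 4.95), a subunit of the intraflagellar transport machinery.

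Nucleotide exchange factors of the Hsp110 kind differed over a wide range. *Hspa4* had a density of 605 ± 22.4 and *Hsph1* 169.85 ± 14.8, while *Hspa4l* had 7.16 ± 3.24. *Hspa8* stood 4.37 ± 0.337 times above *Hspa4* and 15.6 ± 0.845 times above *Hsph1* per length.

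Summed over 44 genes, J-domain proteins had a density of 3147 ± 93.4 in WT, which is 0.697 ± 0.0306 of the summed density of the 9 Hsp70 genes. The 4 class A members, which have the full bacterial DnaJ layout, carried 28.8% ± 0.837 of the J-domain density. *Dnaja1* (484 ± 15.8) and *Dnaja2* (343 ± 19.6) are cytosolic and *Dnaja3* (78.1 ± 3.97) is mitochondrial. Among class B, *Dnajb6*, which suppresses polyglutamine aggregation, had 406 ± 41.1, ahead of the ER protein *Dnajb11* (132 ± 5.30) and of *Dnajb1* (81.8 ± 11.5), the usual partner of Hsp70 in disaggregation. Class C, which shares the J domain alone, was led by the splicing-associated *Dnajc8* (288 ± 7.95), by *Dnajc7* (268 ± 31.6), which binds Hsp70 and Hsp90, and by the ribosome-associated *Dnajc2* (103 ± 4.18). The libraries of *Dnajc8* and *Dnajc7* overlapped.

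The 19 members left out of the tests were 9 Dnaj genes (*Dnaja4*, *Dnajb2*, *Dnajb3*, *Dnajb4*, *Dnajb7*, *Dnajb13*, *Dnajc5b*, *Dnajc5g* and *Dnajc28*) and 10 others (*Hspa1a*, *Hspa1b*, *Hspa1l*, *Hspa12b*, *Hspb2*, *Hspb3*, *Hspb6*, *Hspb7*, *Hspb9* and *Hspe1*). None had more than 29 counts in a library. *Hspb7* was at 0 in all 15 libraries, and *Dnajb7* and *Dnajc5g* were at 0 in 14.

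Low counts of the stress-inducible Hsp70 genes have to be read with the counting in mind, since the authors kept reads with 1 alignment. *Hspa1a* had 0 to 3 counts and *Hspa1b* 0 to 6, and only 8.17% and 10.8% of their 28-nt windows are unique among the counted transcripts. The stretch below is the first counted window that both genes hold, at chr17:34971853-34971880 in *Hspa1a* and at chr17:34958935-34958962 in *Hspa1b* (exon 1 of each, minus strand, GRCm38).
Hspa1a and Hspa1b: TCGTGCGTGGGCGTGTTCCAGCACGGCA
A footprint of this sequence has no unique place. *Hspa1l*, with 79.5% of its windows unique, had 0 to 2 counts.

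*Hspd1* and *Hspe1* form one mitochondrial folding chamber and are transcribed head to head from chromosome 1. *Hspe1* had 22, 16 and 26 counts in WT total RPFs and 10 to 26 over all libraries. Per counted length *Hspd1* stood above *Hspe1* by 105, 145 and 90.9 times in the WT libraries, and by 126 ± 40.2 times in the Rps27-FLAG IP. The whole of the *Hspe1* CDS is unique among the counted transcripts, but 198 of its 219 windows also occur in AC117239.2, a gene that M21 annotates as protein-coding and that is not among the counted transcripts. Abundant members shared windows with uncounted M21 transcripts too: 18.4% of the windows of *Hspd1*, 4.7% of *Hspa8* and 7.43% of *Hsp90aa1* were unique among all M21 transcripts, against 9.59% of *Hspe1*. The share was 0.939% for *Dnajb6*, 4.62% for *Dnaja1* and 6.3% for *Hspb1*. Whether reads of *Hspe1* or of these abundant members were lost in this way was not tested.

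The letters of a heat shock element, the binding motif of heat shock factors, were searched in RefSeq promoters (GRCm38.p6, 250 bases before to 50 after each start) as GAANNTTCNNGAA and, for the other strand, TTCNNGAANNTTC, matches which can overlap. They occurred in 4 of the 59 members with a promoter entry (6.78%), *Dnajb6*, *Hspd1*, *Hspe1* and *Hsph1*, and in 175 of 26965 other genes (0.649%). *Hspd1* and *Hspe1* share theirs, since their promoter windows overlap; it is shown on the *Hspe1* strand at chr1:55088053-55088077, with that of *Dnajb6* at chr5:29735846-29735870 (plus strand), the motif in capitals.
Hspe1: ggtccgTTCTAGAACCTTCcggaag
Dnajb6: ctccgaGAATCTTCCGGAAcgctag
*Hspa8* and *Hsp90aa1* had no promoter entry.

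Tagging either paralog left no member past the threshold in total RPFs. By edgeR's quasi-likelihood test with Benjamini-Hochberg adjustment over all transcripts, 0 of the 54 members were called in Rps27-FLAG against WT, 0 in Rps27l-FLAG against WT and 0 in Rps27l-FLAG against Rps27-FLAG, as were 0% of all transcripts in each. At an unadjusted p under 0.05 the members numbered 1, 4 and 3, where 2.92%, 5.69% and 5.75% of all transcripts fell under it. The first 2 comparisons share their WT libraries. The study's sample sheet gives the replicate number as the sequencing batch, and with it as a block 0 members were called in the 3 comparisons, against 0.00992%, 1.43% and 1.36% of all transcripts.

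The abundant chaperones stayed close to their WT level. *Hspa8* had 4493, 4988 and 5407 CPM in WT total RPFs, 4335, 5268 and 5843 in Rps27-FLAG and 4578, 4334 and 5415 in Rps27l-FLAG. *Hsp90aa1* had 4574, 5098 and 5540.2 CPM in WT, 4383, 5278 and 6038 in Rps27-FLAG and 4554, 4744 and 5402 in Rps27l-FLAG. The 3 lines overlapped for both genes. The highest log2 differences of Rps27-FLAG from WT were those of *Dnajc12* (0.35), *Dnajc27* (0.29) and *Dnajc30* (0.21), and the lowest those of *Dnajb14* (-0.20), *Dnajc6* (-0.27) and *Dnajc22* (-0.40). Rps27l-FLAG against WT ran from *Dnajc27* (0.53), *Hspb11* (0.41) and *Dnajc12* (0.34) to *Dnajc6* (-0.19), *Dnajc3* (-0.21) and *Dnajc21* (-0.22). Rps27l-FLAG against Rps27-FLAG ran from *Hspa4l* (0.39), *Dnajc22* (0.36) and *Hspb11* (0.28) to *Dnajc30* (-0.23), *Dnajc3* (-0.23) and *Dnajc7* (-0.24). Those at the ends were mostly rarely translated members, for example *Dnajc27* (0.53 ± 0.23, SE, in Rps27l-FLAG against WT), a Rab-like protein with a J domain that had 3.64, 5.05 and 2.99 CPM in WT. In Rps27-FLAG against WT the lowest unadjusted p belonged to *Dnajc6* (auxilin, which strips clathrin coats), with 45.6, 47.2 and 44.5 CPM in WT, 38.3, 36.5 and 39.2 in Rps27-FLAG and 39.6, 39.5 and 41.6 in Rps27l-FLAG. The tagged lines did not overlap WT for *Dnajc6*, yet its log2 differences of -0.27 ± 0.079 and -0.19 ± 0.079 (SE) in Rps27-FLAG and Rps27l-FLAG had adjusted p of 0.999 and 0.821 by edgeR.

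**Figure D2:**
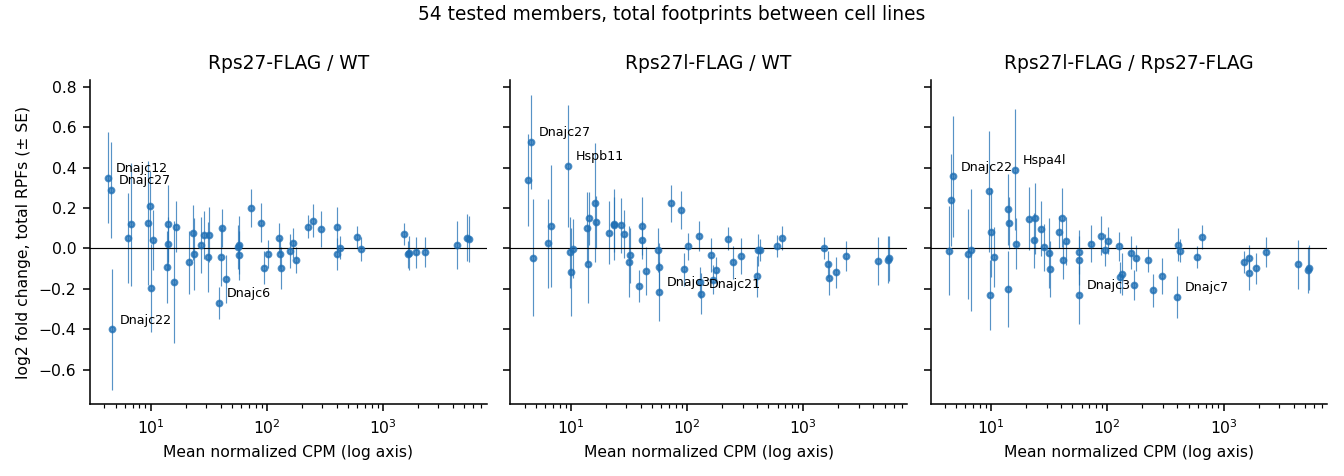
Log2 fold change of total RPFs (y axis, bars are SE) against the mean normalized CPM over the 5 conditions (x axis, log) for the 54 tested members in the 3 comparisons of cell lines. The highest values, *Dnajc27* (0.53) and *Hspb11* (0.41), and the lowest, *Dnajc22* (-0.40), belong to rarely translated members, while *Dnajc7* (-0.24) is an abundant one.

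Total RPFs differed between replicate numbers for many transcripts of the table, and several chaperones were among them. This comparison was chosen after the values were seen. With cell line in the model, edgeR called 9 of the 54 members (16.7%) between the 3 replicate numbers, where 12.3% of all transcripts were called. The smallest adjusted p by edgeR were those of *Hsp90aa1* (0.00167), *Hsp90ab1* (0.00259) and *Hspa8* (0.00697). Replicate 3 exceeded replicate 1 by log2 0.33, 0.35 and 0.31 in these genes, and it was the highest of the 3 libraries in 5 of 5 conditions for each. *Hspd1* (0.17), *Hsph1* (0.19), *Hspa5* (0.12) and *Dnajc7* (0.23) were also higher in replicate 3, and *Hspa4l* (-0.80) and *Hspb11* (-0.79) were lower. Each replicate number holds other clones and another batch, which cannot be told apart. Without a block, this spread between replicates enters the error of the comparison of IP with total RPFs for the same genes. The fit with the clone as a block takes out the part that both fractions of a clone share. How far this changed the calls was not tested.

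**Figure D3:**
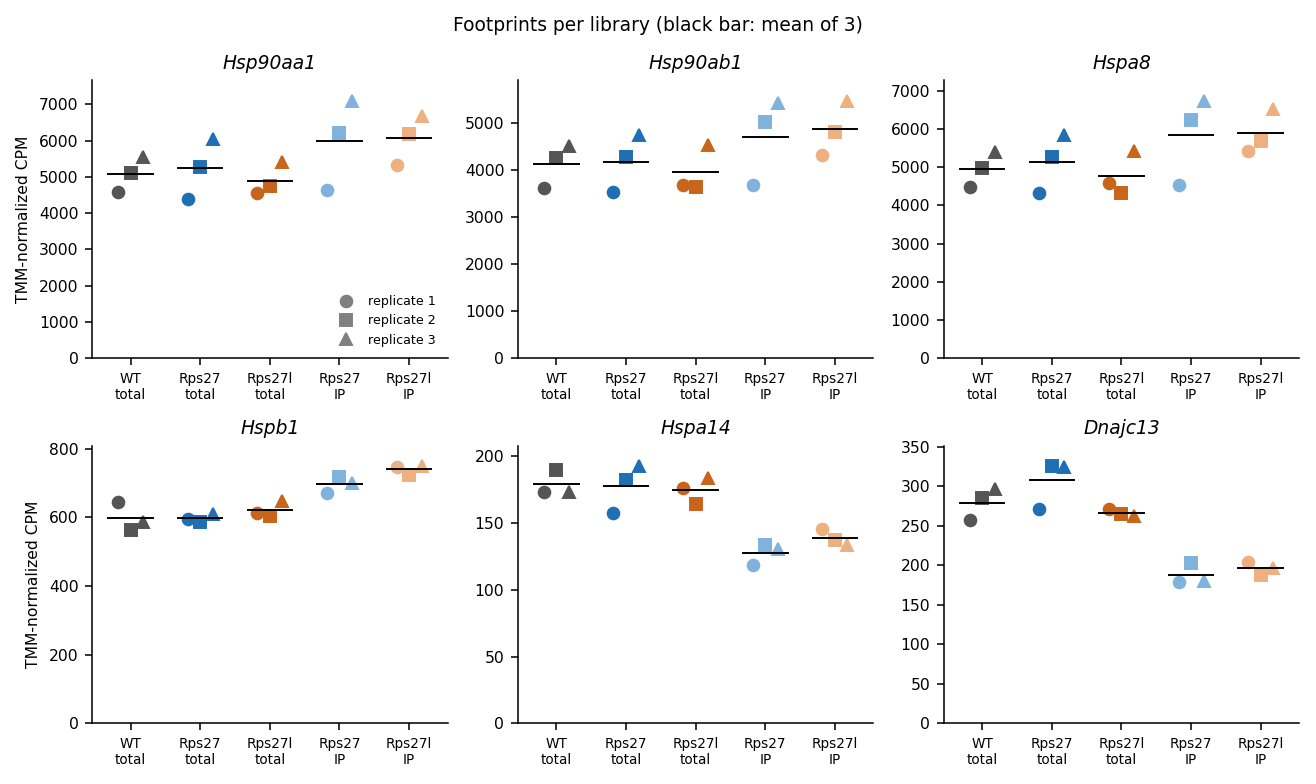
TMM-normalized CPM (y axis, from 0) of 6 members in each of the 15 libraries, by condition; symbols mark the replicate number and black bars the mean of 3. *Hsp90aa1*, *Hsp90ab1* and *Hspa8* are highest in replicate 3 of every condition, and the IP libraries of *Hspa14* and *Dnajc13* all lie below the total libraries.

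In Rps27-FLAG cells, 2 of the 54 members were lower in the IP than in total RPFs and 0 were higher by edgeR, where 5.34% of all transcripts were lower and 0.327% higher. They were *Dnajc13*, whose product (RME-8) works with Hsc70 in endosomal sorting, and *Hspa14*, a ribosome-associated Hsp70 relative. *Dnajc13* had 272, 325 and 325 CPM in total RPFs and 179, 203 and 180.01 in the IP. All 3 IP libraries lay below all total libraries. The log2 fold change was -0.72 ± 0.090 (SE, edgeR adjusted p = 0.00439). *Hspa14* had 158, 182 and 193 CPM in total RPFs and 118, 133 and 131 in the IP, again without overlap, and a log2 fold change of -0.48 ± 0.089 (edgeR adjusted p = 0.0212). Of its windows 89.7% are unique, and the rest are shared with Gm45902. Neither gene was called without replicate 2 (adjusted p by edgeR 0.126 and 0.328) or without replicate 3 (0.166 and 0.287), with log2 values from -0.77 to -0.64 for *Dnajc13* and from -0.51 to -0.43 for *Hspa14*; without replicate 1, 11 members passed, 9 of them higher in the IP.

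In Rps27l-FLAG cells the same 2 genes were lower in the IP, where 2.27% of all transcripts were, and 1 member was higher, where 0.833% were. *Dnajc13* had 272, 264 and 263 CPM in total RPFs and 204, 188 and 197 in the IP (log2 -0.44 ± 0.057, edgeR adjusted p = 0.0107). *Hspa14* had 177, 164 and 184 CPM and 145, 138 and 134 (log2 -0.33 ± 0.071, edgeR adjusted p = 0.0475). *Hspb1* had 614, 603 and 647 CPM in total RPFs and 747, 723 and 749 in the IP (log2 0.25 ± 0.047, edgeR adjusted p = 0.0284). The 2 fractions did not overlap for any of the 3 genes. In Rps27-FLAG cells *Hspb1* had 596, 586 and 610 CPM in total RPFs and 671, 717 and 700.01 in the IP, with a log2 fold change of 0.22 ± 0.055 (edgeR adjusted p = 0.0608). No member passed without Rps27l-FLAG replicate 1 or without replicate 2, and 4 passed without replicate 3.

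Values that did not overlap between fractions were found for 9 members higher in the IP (16.7%) and 6 lower (11.1%) in Rps27-FLAG, where 11.4% and 16.9% of all transcripts were. In Rps27l-FLAG they were found for 11 higher (20.4%) and 7 lower (13%), where 9.22% and 14% were. The members with the highest log2 fold change were *Dnajb14* (0.30), *Dnajc24* (0.29) and *Dnajc15* (0.25) in Rps27-FLAG, and the lowest *Hspa14* (-0.48), *Hspa4l* (-0.50) and *Dnajc13* (-0.72). In Rps27l-FLAG the highest were *Dnajb5* (0.34), *Hsp90aa1* (0.31) and *Hspa8* (0.30), and the lowest *Dnajc16* (-0.36), *Hspa4l* (-0.38) and *Dnajc13* (-0.44). The median log2 fold change of the members was 0.08 and 0.09 against -0.01 and -0.03 over all transcripts.

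Both fractions of a replicate were taken from 1 clone, and pairing them by clone changed the counts. With the clone as a block, edgeR called 17 members higher (31.5%) and 7 lower (13%) in the Rps27-FLAG IP, against 18.3% and 22.9% of all transcripts. In the Rps27l-FLAG IP it called 15 higher (27.8%) and 7 lower (13%), against 12% and 19%. Between the lines, which share no library, 12 members were higher in both (22.2%) and 6 lower in both (11.1%), against 9.48% and 15.5% of all transcripts. Opposite calls were made for 0 members and 0.0496% of all transcripts. The blocked fit rests on 3 clones per line and shares its estimate of spread over all transcripts. Its small adjusted p therefore do not measure the spread between clones for 1 gene.

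**Figure D4:**
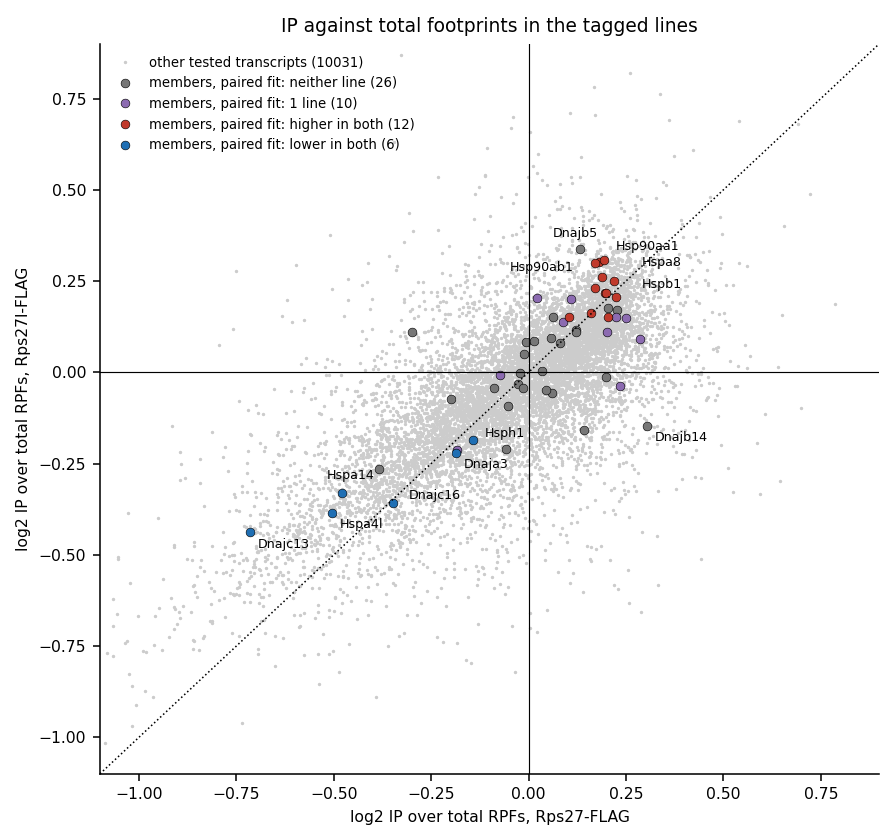
Log2 fold change of IP over total RPFs in Rps27-FLAG (x axis) and Rps27l-FLAG (y axis) for the 54 tested members, coloured by the call of the fit with the clone as a block, over 10031 other tested transcripts in grey (10 transcripts fall outside the axes). The 12 members called higher in both lines lie between log2 0.10 and 0.31 on both axes, and *Dnajc13* is the lowest member in both.

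All 3 Hsp90 genes were among the members higher in both lines. *Hsp90aa1* had 4635, 6220.0 and 7101 CPM in the Rps27-FLAG IP and 5332, 6189 and 6688 in the Rps27l-FLAG IP. The clone-wise log2 ratios of IP to total were 0.08, 0.24 and 0.23 in Rps27-FLAG and 0.23, 0.38 and 0.31 in Rps27l-FLAG. *Hsp90aa1* was therefore higher in the IP in 6 of 6 clones, although its IP and total libraries overlapped within each line. The blocked log2 fold changes were 0.18 (edgeR adjusted p = 2.33e-06) and 0.31 (3.38e-14), whereas without the block the adjusted p were 0.549 and 0.124.

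*Hspa8* had clone-wise log2 ratios of 0.06, 0.25 and 0.21 in Rps27-FLAG and 0.24, 0.40 and 0.27 in Rps27l-FLAG. *Hspd1* had 0.10, 0.22 and 0.19, and 0.16, 0.31 and 0.23. *Hspa5* had 0.14, 0.22 and 0.22, and 0.18, 0.26 and 0.21. All 3 were higher in the IP in every clone. The other members higher in both lines were *Hsp90ab1*, *Hsp90b1*, *Hspb1*, the class A proteins *Dnaja1* and *Dnaja2*, and *Dnajb6*, *Dnajc7* and *Dnajc8*. *Hspa9*, the mitochondrial Hsp70, was not called in either line by the blocked fit (log2 -0.02, adjusted p = 0.727, and 0.05, adjusted p = 0.139).

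The members lower in both lines were *Dnajc13*, *Hspa14*, *Hspa4l*, *Hsph1*, the mitochondrial class A protein *Dnaja3* and the ER-anchored *Dnajc16*. *Hspa4l* had clone-wise log2 ratios of -0.44, -0.52 and -0.66 in Rps27-FLAG and -0.34, -0.35 and -0.53 in Rps27l-FLAG, on 7.83 to 26.7 CPM over all libraries. In *Hsph1* the ratios were -0.22, -0.12 and -0.10, and -0.12, -0.24 and -0.20. Hsp110 was therefore the one role group in which all 3 members were lower in Rps27-FLAG by the blocked fit (*Hspa4* with log2 -0.08), with 2 of 3 lower in Rps27l-FLAG.

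CDS length moved with these values. Over all transcripts tested, the log2 fold change of IP over total RPFs had a Spearman's rho with CDS length of -0.56 for the Rps27-FLAG line and -0.53 for the Rps27l-FLAG line, a description across transcripts, which are not independent. Over the 54 members rho was -0.44 and -0.26. With WT footprint density in place of length, rho over the members was 0.31 and 0.49. The part of density in the calls was not tested. *Dnajc13* has the longest CDS of the tested members (6729 nt, against a member median of 1324.5 nt), and the Hsp110 genes are among the longer ones.

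**Figure D5:**
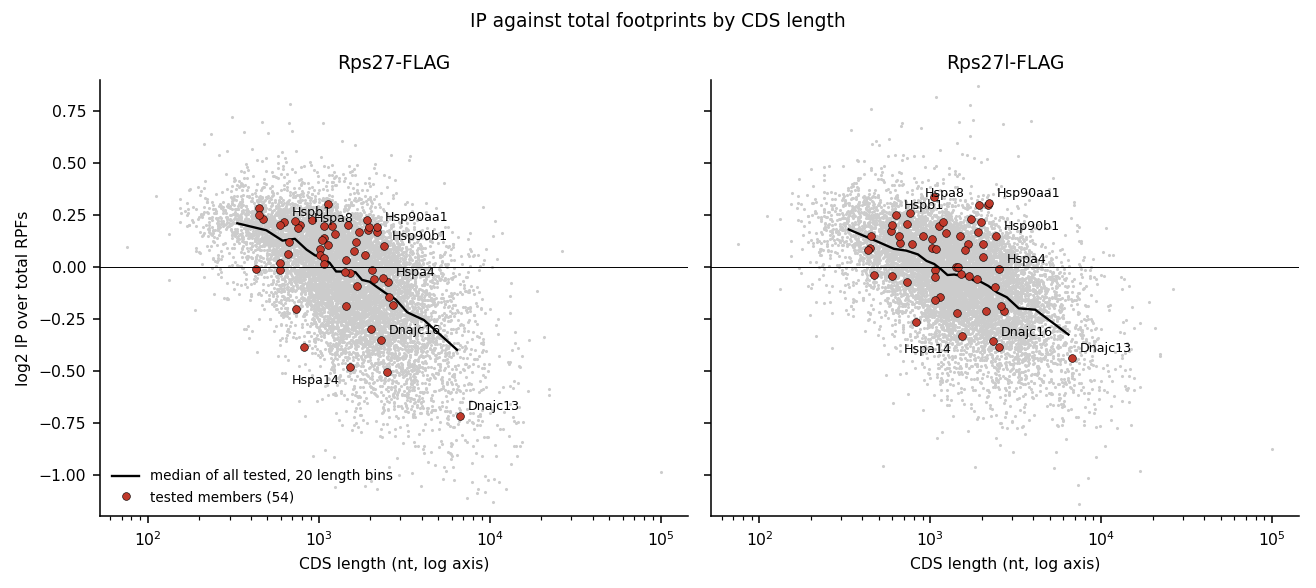
Log2 fold change of IP over total RPFs (y axis) against CDS length (x axis, log) in the tagged lines, for the 54 tested members (red) and all other tested transcripts with a length (grey), with the median of all tested transcripts in 20 length bins (line); 6 and 3 transcripts fall outside the axes. *Dnajc13* lies at the long end below the falling line, while *Hsp90aa1* and *Hspa8* lie above the line and *Hspa14* below it in both lines of cells.

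With the length trend removed from each library and the clone as a block, edgeR called 15 members higher and 5 lower in the Rps27-FLAG IP, against 17.2% and 13.7% of all transcripts. In the Rps27l-FLAG IP it called 16 higher and 3 lower, against 13.5% and 8.80%. *Hspa14* kept most of its difference (log2 -0.42 and -0.28, edgeR adjusted p = 1.63e-25 and 1.28e-07). *Dnajc13* kept less (log2 -0.31 and -0.12, adjusted p = 3.37e-17 and 0.00584). These p, too, rest on a spread shared over all transcripts. The Hsp90 genes moved up, with *Hsp90aa1* at log2 0.29 and 0.40 and *Hsp90b1* at 0.23 and 0.26. *Hsph1* was no longer called (log2 -0.00 and -0.06, adjusted p = 0.968 and 0.178). *Hspa4* was called higher in Rps27l-FLAG (log2 0.11, adjusted p = 0.00123), where the blocked fit without the length correction had not called it. In Rps27-FLAG *Hspa4* was no longer called (log2 0.07, edgeR adjusted p = 0.143). *Hspa4l* and *Dnajc16* were no longer called in Rps27l-FLAG (log2 -0.27 and -0.24, edgeR adjusted p = 0.0921 and 0.0566). *Dnajc13*, *Hspa14* and *Dnaja3* stayed lower in both lines. Without the clone block, removal of the length trend left 0 members called in either line.

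The effect of the IP differed between the lines for 1 of the 54 members. By edgeR, with clones in the model and a limit of 0.25 on the absolute log2 difference, *Dnajc13* was called with the higher ratio in Rps27l-FLAG, where 0.466% of all transcripts were, and 0 members the other way, where 0.0992% were. At an unadjusted p under 0.05 there were 8 members and 12.1% of all transcripts. The clone-wise log2 ratios of *Dnajc13* were -0.60, -0.68 and -0.85 in Rps27-FLAG and -0.41, -0.50 and -0.41 in Rps27l-FLAG, without overlap. Their difference was 0.26 ± 0.050 (SE, edgeR adjusted p = 3.52e-04). The IP levels of *Dnajc13* overlapped between the lines, whereas the lowest total RPF library of Rps27-FLAG (271.93 CPM) lay just over the highest of Rps27l-FLAG (271.79 CPM). The difference was 0.19 (adjusted p = 0.0276) with the length trend removed, which is under the fold limit.

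The lowest p after *Dnajc13* did not pass. *Hsp90ab1* (0.14 ± 0.041), *Hspa8* (0.13 ± 0.042) and *Hsp90aa1* (0.12 ± 0.042) had edgeR adjusted p of 0.0651, 0.0866 and 0.126. Their clone-wise ratios overlapped between the lines. The highest differences were those of *Hspa12a* (0.39), *Dnajc13* (0.26) and *Dnajb5* (0.21, but -0.00073 without Rps27l-FLAG replicate 3), and the lowest those of *Dnajc19* (-0.26), *Dnajc25* (-0.30) and *Dnajb14* (-0.47). The widest values in either direction were those of *Hspa12a* (0.39 ± 0.27) and *Dnajb14* (-0.47 ± 0.22), both with under 14 CPM in every library, and neither passed (adjusted p = 0.619 and 0.361).

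Cochaperones and other proteostasis genes outside the set were read from a list of 48 genes, of which 47 were tested. None was called in the 3 comparisons of total RPFs. In Rps27-FLAG 0 were higher in the IP and 2 lower (0.327% and 5.34% of all transcripts), *Trap1*, the mitochondrial Hsp90 (log2 -0.31 ± 0.052, edgeR adjusted p = 0.0139), and *Gak*, a J-domain kinase that uncoats clathrin like auxilin (-0.48 ± 0.10, adjusted p = 0.0374). In Rps27l-FLAG 1 was higher, *St13*, the Hsp70-interacting protein Hip (0.23 ± 0.047, adjusted p = 0.0398), and 0 were lower (0.833% and 2.27% of all transcripts). With the clone as a block, 24 of the 47 passed with a higher and 6 with a lower level in the Rps27-FLAG IP, where 18.3% and 22.9% of all transcripts did. In the Rps27l-FLAG IP 19 and 6 passed, where 12% and 19% of all transcripts did, and 1 was lower in total RPFs of Rps27l-FLAG against WT, where 1.43% of all transcripts were called. None differed between the lines.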

How the data were processed

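Counts were deposited by the authors as raw footprint counts per transcript in 15 libraries. Per the submitters' notes and the paper's methods, reads were trimmed with cutadapt 2.4, cleared of ribosomal and transfer RNA, aligned with Bowtie2 2.3.4.3 to 1 set of GRCm38 transcripts, deduplicated by molecular identifier with UMI-tools 1.0.1, kept when aligned uniquely, and assigned by A site to the CDS without its first 15 and last 5 codons. All columns of counts were used. Clones are separate edited or unedited lines. Symbols and CDS positions came from GENCODE M21, in which 21713 of 21727 identifiers matched; the study used an adjacent release.

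Transcripts over 2 CPM in at least 14 libraries, without 13 mitochondrially encoded ones, were tested in R 4.3.3 with edgeR 4.0.16 (quasi-likelihood test, TMM factors per fraction, Benjamini-Hochberg adjustment, threshold 0.05), with limma 3.58.1 and DESeq2 1.42.0 as alternatives. Total RPFs were fitted by cell line, IP by fraction within a line, and the difference between lines with clones in the model. A standard error is the size of the log2 fold change over the square root of its quasi-likelihood F. Densities are normalized CPM per kb of counted CDS; clone ratios add 0.5 counts. Labels tie IP and total libraries of a replicate to 1 clone, and their deviations from the group means correlated at r of 0.468 to 0.790. These libraries also share a batch, so that r does not tell clone from batch. The main fits of Rps27-FLAG against WT, of the Rps27-FLAG IP and of the difference between lines were run on simulated counts. The simulation held no clone, batch or length effect. Fits with the replicate block or the length trend removed were not run on it. Members, gene lists and tests were chosen with earlier results of these data known. Named genes were every called member, the 3 highest and 3 lowest per comparison, the 3 densest per role, partner pairs, members with few unique windows and those filtered out; other members were named after their values were seen.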

Additional observations from a re-analysis of the deposited data

Results flagged for a closer look

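The ratio of IP to total RPFs of *Dnajc13* differed between the tagged lines by the test of the difference itself, with a log2 difference of 0.26 (Rps27l-FLAG over Rps27-FLAG, edgeR adjusted p = 3.52e-04). The ratio was below 0 on the log2 scale in 6 of 6 clones. It was no longer called without Rps27-FLAG replicate 3 (0.20) or without Rps27l-FLAG replicate 1 (0.25), where it fell under the fold limit with adjusted p of 0.0419 and 0.00831. The call was also lost with the length trend removed. Among 50 tested transcripts of similar CDS length the median difference between the lines was 0.12, with 43 below *Dnajc13* and 7 above it.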

How the results depend on the processing

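The 19 of 73 members with few counts were not tested, whether for depth, shared sequence or low translation. The SE of a log2 difference in total RPFs was 0.23 for *Dnajc27* against a median of 0.114 over the members. Counting intervals were not used, since clones and not reads are the replicates. The 3 counts of 0 members in total RPFs were 0 under every alternative run: voom and limma, DESeq2, DESeq2 size factors, TMM over all libraries, both other filters, removal of the length trend, the replicate block and each clone left out.

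The count of members called between IP and total RPFs depended on the block and on length. In Rps27-FLAG it was 2, and 24 with the replicate block, 20 with the replicate block and the length trend removed, 0 with the length trend removed alone and 0 to 11 with a clone left out. In Rps27l-FLAG it was 3, and 22, 19 and 0 under the same settings, 8 with DESeq2 and 0 to 4 with a clone left out. The difference between the lines was called for 1 member, and for 0 with the length trend removed, 0 without the replicate block and 0 to 1 with a clone left out. Of 564 recomputed log2 fold changes of 38 named values, 563 kept their direction. These values were chosen as called or extreme in the same libraries, so that a kept direction was likely from the start. *Dnajb5* in the difference between lines was 0.21, and -0.00073 to 0.36 with a clone left out, the lowest without Rps27l-FLAG replicate 3.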
